A study of Mus musculus with 9 samples.

Results

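Surface proteins are the usual handles for sorting mesenchymal stromal cells of bone marrow, and 10 such marker genes were followed here: Lepr, Pdgfra, Pdgfrb, Nes, Cspg4, Thy1, Eng, Nt5e, Ly6a and Ngfr. Members were the probe sets whose only symbol in the platform table is one of these genes. Of the 10 genes, 9 had such a probe set, 1 each, among 21789 probe sets with 1 symbol and 35553 in all. Ly6a (Sca-1) is the only symbol of no probe set there. Probe sets with several symbols were not used, so Ly6a was not analysed here. Nestin, the product of Nes, is an intermediate filament inside the cell and is grouped with the surface markers by usage.

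The arrays were of CXCL12-abundant reticular (CAR) cells, the perivascular stromal cells of marrow that make most of its chemokine Cxcl12. All mice of both groups carried green fluorescent protein in 1 Cxcl12 allele (Cxcl12+/gfp), and the sorted cells were lineage-negative and GFP-bright. RNA was amplified and hybridised to Mouse Gene 1.0 ST arrays. Mice of 5 arrays received G-CSF (granulocyte colony-stimulating factor), which drives neutrophil output and mobilises stem cells, at a daily dose of 250 µg/kg over 5 days. Mice of 4 arrays received PBS (phosphate-buffered saline) over the same period. The titles call each array a biological replicate. The labels give no age or sex and do not say how many animals stand behind an array. The p-values rest on the spread between arrays, which may be partly technical. The labels disagree on the material, since the titles name CAR cells, while all 9 source names refer to pre-B colonies, 4 of them with an Hspa9 genotype, and the groups here follow the titles and the treatment labels.

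These markers come from different traditions. The leptin receptor and the receptors for platelet-derived growth factor (PDGF) mark the perivascular stroma of adult mouse marrow, where leptin receptor positive cells largely overlap with CAR cells. Nestin and the proteoglycan NG2 (Cspg4) mark periarteriolar stroma and pericytes. CD90 (Thy1), CD105 (Eng) and CD73 (Nt5e) define mesenchymal stromal cells in culture, the low-affinity nerve growth factor receptor CD271 (Ngfr) is used to isolate them from human marrow, and Sca-1 is used in mice.

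Levels are given as log2 of the deposited RMA intensity, changes are G-CSF minus PBS on that scale, and ± gives the SD over 5 G-CSF or 4 PBS arrays. Among the tested probe sets the PBS means had a median of 5.41 and an upper quartile of 6.74. Probe sets differ in affinity, so such positions place a value within the range of the arrays and do not rank transcripts against each other. The first principal component (29.8% of the variance) separated 2 sets of arrays that the labels do not name: set 1 held G-CSF replicates 1 to 3 with PBS replicates 1 and 2, and set 2 held the other 4 arrays. PBS replicate 3 stood farthest out in set 2, at 84.5 on that component against a highest value of 40.8 for any other array. The labelled cell type was set beside marker lists that were drawn up with earlier results of these data known, so the comparison is only a description. All 21 genes of a list of CAR and leptin receptor positive stroma had PBS means above the upper quartile. By contrast, 13 of 15 endothelial genes and all 10 T cell genes lay below the median. Genes of other cells were bright too: 11 of 14 neutrophil genes and 5 of 7 osteoblast genes had PBS means above the upper quartile, and the neutrophil list mean was 8.90 to 9.65 in G-CSF and 7.84 to 9.29 in PBS.

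After G-CSF, no change of a marker transcript passed the test when all arrays were compared without covariates, and the bright markers Lepr, Pdgfra and Pdgfrb had mean changes of -0.22, 0.28 and 0.01. In limma's moderated test over all 21789 probe sets, 0 of the 9 markers passed an adjusted p of 0.05 (Benjamini-Hochberg), where 1.62% of all tested probe sets did (0.743% higher and 0.877% lower in G-CSF). At an unadjusted p under 0.05 it was 1 of 9 (Thy1), against 9.22% of all probe sets. The 9 changes ran from -0.22 (Lepr) to 0.65 (Thy1), with a median of 0.21 beside 0.00614 over all tested probe sets, and 7 of the 9 were positive. For 1 marker, Pdgfra, every G-CSF array exceeded every PBS array; 2.18% of all probe sets were separated in this direction, 2.46% in the other and 4.65% in either. Missing the threshold does not show that a transcript was unchanged, so the 95% interval of each change, not adjusted for the number of probe sets, is given beside it.

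**Figure D1:**
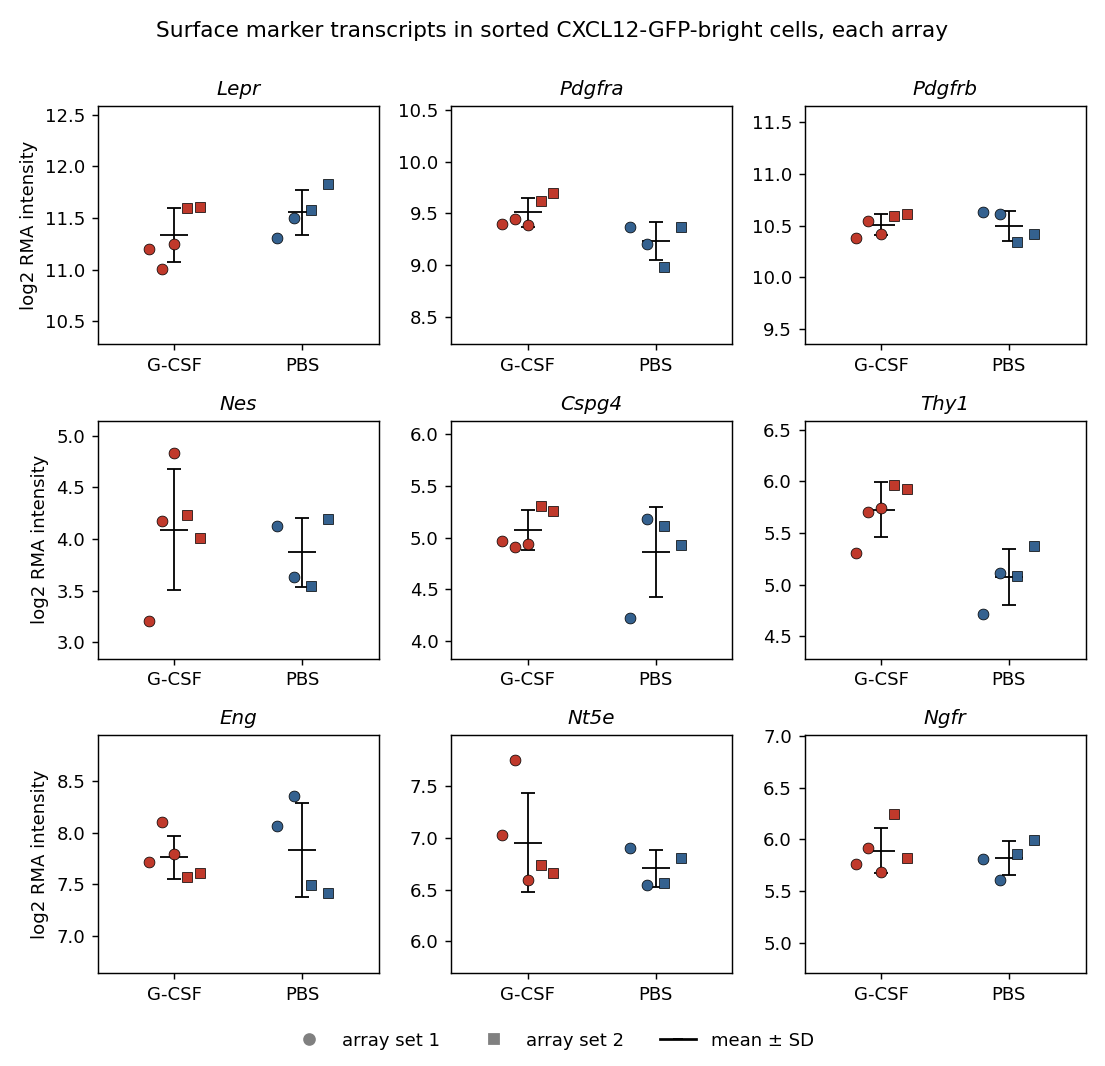
Level of each of the 9 markers (log2 RMA intensity, vertical axes of equal length but different position) in every array, G-CSF in red on the left and PBS in blue on the right. Circles are arrays of set 1 and squares arrays of set 2, and black bars give the mean ± SD of a group; the groups overlap for every marker except Pdgfra, where they lie close together.

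Lepr, the receptor for the fat-derived hormone leptin and the defining marker of this stroma, was measured by a very bright probe set: its PBS mean was at or above 99.8% of the tested probe sets. Its level was 11.20, 11.01, 11.25, 11.60 and 11.61 in the 5 G-CSF arrays (replicates 1 to 5), against 11.31, 11.50, 11.58 and 11.83 in the 4 PBS arrays (replicates 1 to 4). The ranges overlapped, and the values also followed the array sets, with a mean of 11.65 in set 2 and 11.25 in set 1. The change was -0.22 with means of 11.33 ± 0.26 in G-CSF (SD, n = 5) and 11.55 ± 0.21 in PBS (n = 4), and its SE was 0.17 (95% interval -0.59 to 0.15, adjusted p = 0.839). The interval corresponds to 0.663-fold to 1.11-fold of the PBS level. Within array set 1 the G-CSF values were all below the PBS values, and within set 2 they overlapped; the changes were -0.25 and -0.10. With the sets as a block the change was -0.18 (adjusted p = 0.612).

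Other genes of CAR cells fell. In the list of CAR and leptin receptor positive stroma, which does not hold any of the 9 markers, 16 of 21 genes fell and 0 rose, with a median change of -0.90. Lpl, a lipoprotein lipase, fell 3.09-fold (adjusted p = 3.73e-05), Il7, a cytokine for B cell progenitors, fell 4.22-fold (adjusted p = 4.78e-05), and Gas6, a ligand of TAM receptors, fell 3.09-fold (adjusted p = 7.08e-05). With 1 array left out, 11 to 15 of the 21 fell. Relative to the mean of this list in the same array, Lepr lay 1.26 to 1.87 higher in the G-CSF arrays and 0.51 to 1.16 higher in the PBS arrays. Lepr itself did not rise: its own values overlapped between the groups, with a mean change of -0.22. All 9 markers shifted up against the list mean. The shift of Lepr was the smallest of the 9, at 0.73, and that of Thy1 the largest, at 1.61. The list mean itself was 9.74 ± 0.01 in G-CSF and 10.69 ± 0.11 in PBS, so an unchanged gene would shift up against it by the difference of these means. An upward shift, or separate groups on this measure, is therefore no result about a marker. The list was drawn up with earlier results of these data known, so this contrast is a description and was not tested. The marker lists of other cells had median changes in both directions, though most of their genes did not pass the adjusted threshold. The neutrophil genes had a median change of 1.06 (10 of 14 at an unadjusted p under 0.05). The pericyte and smooth muscle genes had a median of 0.22, with list means of 6.18 to 6.34 in G-CSF and 5.75 to 5.90 in PBS. Sca-1 positive fibroblast genes had a median of 0.18. Medians were negative for B lineage (-0.56), erythroid (-0.47), osteoblast (-0.47) and macrophage (-0.32) genes. Those of endothelial, T cell, glial and blood progenitor genes lay between -0.05 and 0.04. The part of these cells in the fall of the CAR list was not tested.

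**Figure D2:**
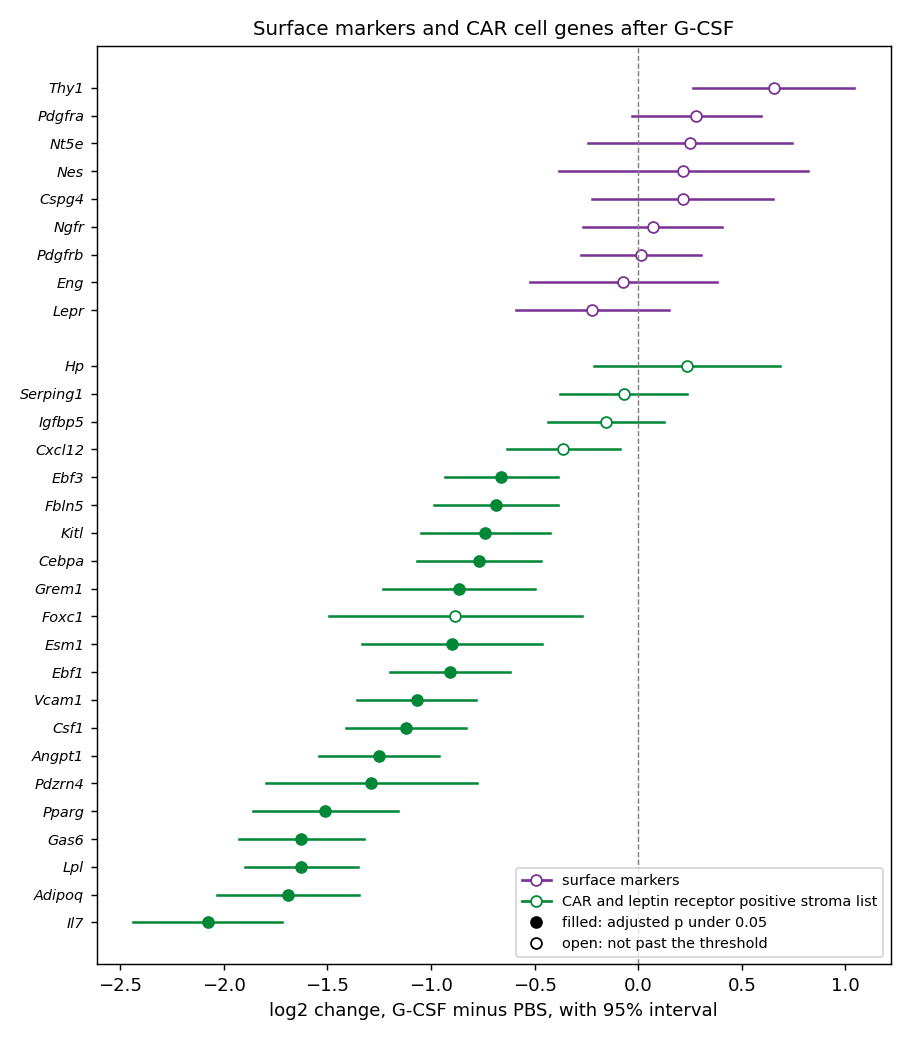
Change of the 9 surface markers (top, purple) and of 21 genes of CAR and leptin receptor positive stroma (bottom, green), as log2 G-CSF minus PBS on the horizontal axis with 95% intervals; filled points passed the adjusted p threshold of 0.05. No marker is filled and all lie between -0.22 and 0.65, while 16 of the 21 CAR cell genes are filled, all to the left of 0.

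Among 12 genes that work with Lepr, its ligand gene Lep included, 2 rose and 0 fell. Of all tested probe sets, 0.743% were called higher in G-CSF and 0.877% lower. Jak2, the tyrosine kinase bound to the leptin receptor and to other cytokine receptors, rose 2.32-fold, with 8.53 ± 0.18 in G-CSF and 7.31 ± 0.23 in PBS (change 1.22, SE 0.16, adjusted p = 0.00162). Ptpn1, the phosphatase PTP1B that removes phosphate from Jak2, rose 2.39-fold, with 8.29 ± 0.16 in G-CSF and 7.03 ± 0.24 in PBS (change 1.26, SE 0.16, adjusted p = 0.00137). For both genes the G-CSF arrays all lay above the PBS arrays, and both calls held with any 1 array left out. The other 10 did not pass, among them Stat3, the transcription factor activated by the receptor (0.18, adjusted p = 0.844), and Socs3, its feedback inhibitor (0.28, adjusted p = 0.702), both chosen after their values were seen. With the array sets as a block Stat5a also fell. The median change of the list was 0.19. Lep, the gene for leptin, was dim at 3.46 in G-CSF and 3.56 in PBS, below the lower quartile; it too was picked after seeing its values.

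By likeness across the 9 arrays, Lepr was closest to Septin7, a cytoskeletal GTPase (Pearson r = 0.979), Rsrc2 (r = 0.975) and B2m, the light chain of MHC class I (r = 0.966), out of 9515 brighter genes compared. All of them were higher in array set 2 than in array set 1, for example B2m at 12.55 in set 2 and 12.03 in set 1. The arrays share both treatment and array set, so these correlations only describe the pattern.

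The PDGF receptors, tyrosine kinases through which PDGF drives growth and migration of mesenchymal cells, were both bright. Pdgfra was 9.40, 9.44, 9.39, 9.62 and 9.70 in the 5 G-CSF arrays (replicates 1 to 5), against 9.36, 9.21, 8.98 and 9.37 in the 4 PBS arrays (replicates 1 to 4). The G-CSF arrays were all higher, but the lowest of them exceeded the highest PBS array by less than the SD of either group. The change was 0.28 with means of 9.51 ± 0.14 in G-CSF (SD, n = 5) and 9.23 ± 0.18 in PBS (n = 4), and its SE was 0.14 (95% interval -0.03 to 0.59, adjusted p = 0.631). It was 0.12 in array set 1 and 0.49 in array set 2, and 0.20 without PBS replicate 3, whose value was the lowest.

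Pdgfrb had the smallest mean change of the 9 markers. It was 10.38, 10.54, 10.42, 10.59 and 10.61 in the 5 G-CSF arrays (replicates 1 to 5), against 10.63, 10.61, 10.34 and 10.41 in the 4 PBS arrays (replicates 1 to 4). The change was 0.01 with means of 10.51 ± 0.10 in G-CSF (SD, n = 5) and 10.50 ± 0.15 in PBS (n = 4), and its SE was 0.13 (95% interval -0.28 to 0.30, adjusted p = 0.997). The interval spans 0.825-fold to 1.23-fold. Its sign was not settled, with -0.17 in array set 1 and 0.23 in array set 2, and a negative value under further quantile normalisation (-0.10). Among 14 PDGF ligands and partners of the receptors, 1 rose and 0 fell, with a median of -0.06. It was Plat, tissue plasminogen activator, the protease that can activate PDGF-C, at 6.31 ± 0.48 in G-CSF and 4.31 ± 0.44 in PBS (change 1.99, SE 0.26, adjusted p = 0.00193). Its PBS mean lay below the median of the tested probe sets, and whether that level exceeds background cannot be read from these values, so no fold is given. The ligand genes did not pass in the main comparison: Pdgfa was at -0.25, Pdgfb at -0.01, Pdgfc at 0.01 and Pdgfd at -0.83 (adjusted p = 0.250 for Pdgfd), named here after their values were seen. With the array sets as a block and PBS replicate 3 left out, Pdgfd was called lower in G-CSF.

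The markers of periarteriolar stroma and pericytes were dim. Nes was 3.20, 4.18, 4.84, 4.23 and 4.01 in the 5 G-CSF arrays (replicates 1 to 5), against 4.13, 3.63, 3.54 and 4.19 in the 4 PBS arrays (replicates 1 to 4). Its PBS mean lay below the lower quartile of the tested probe sets, and the G-CSF arrays held both the lowest and the highest value. The change was 0.22 with means of 4.09 ± 0.59 in G-CSF (SD, n = 5) and 3.87 ± 0.33 in PBS (n = 4), and its SE was 0.28 (95% interval -0.38 to 0.82, adjusted p = 0.942). Leaving out G-CSF replicate 3 gave 0.03 and leaving out G-CSF replicate 1 gave 0.44. Of 11 partners of nestin, 0 rose and 1 fell, with a median of -0.05: Synm (synemin), which forms filaments with nestin and vimentin, was at 6.56 ± 0.21 in G-CSF and 7.31 ± 0.08 in PBS (change -0.75, SE 0.14, adjusted p = 0.0215). The Synm call was lost without any 1 of G-CSF replicates 1 to 4 and PBS replicates 2 and 4 (highest adjusted p = 0.0678). Vim, the main filament of mesenchymal cells, was at 0.44, adjusted p = 0.433 (a choice made after seeing its values).

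Cspg4, the gene for the NG2 proteoglycan, was 4.97, 4.91, 4.94, 5.31 and 5.26 in the 5 G-CSF arrays (replicates 1 to 5), against 4.23, 5.18, 5.12 and 4.93 in the 4 PBS arrays (replicates 1 to 4). PBS replicate 1 was the low value, and the other 3 PBS arrays lay within the range of the G-CSF arrays. The change was 0.21 with means of 5.08 ± 0.19 in G-CSF (SD, n = 5) and 4.86 ± 0.44 in PBS (n = 4), and its SE was 0.20 (95% interval -0.22 to 0.65, adjusted p = 0.894). Without PBS replicate 1 the change was 0.00268. Beside these markers, the 14 pericyte and smooth muscle genes had list means of 6.18 to 6.34 in G-CSF and 5.75 to 5.90 in PBS, and 2 of them rose: Acta2, smooth muscle actin (1.57, adjusted p = 0.00644), and Rgs4, which dampens G protein signals (1.30, adjusted p = 0.0213). The Rgs4 call did not hold without G-CSF replicate 1 or 3 or PBS replicate 1, 3 or 4 (highest adjusted p = 0.0624). The part of such cells in the marker values was not tested; in sorted bulk RNA, a change in the number of cells of a type and in RNA per cell cannot be told apart.

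Thy1 (CD90), a small glycoprotein anchored in the outer membrane and the marker of cultured mesenchymal cells and of fibroblasts, had the largest difference of the 9. It was 5.30, 5.70, 5.74, 5.97 and 5.92 in the 5 G-CSF arrays (replicates 1 to 5), against 4.72, 5.11, 5.08 and 5.38 in the 4 PBS arrays (replicates 1 to 4). All G-CSF arrays but replicate 1 were above every PBS array, and G-CSF replicate 1 fell short of PBS replicate 4. The means were 5.73 ± 0.26 in G-CSF (SD, n = 5) and 5.07 ± 0.27 in PBS (n = 4), a change of 0.65 (SE 0.18, 95% interval 0.27 to 1.04, adjusted p = 0.120). The PBS mean lay below the median of the tested probe sets. At this adjusted p the change did not pass, and it was smaller than that of most called probe sets, whose absolute changes had a median of 1.09.

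The result for Thy1 turned on how the array sets were handled. Within array set 1 the G-CSF arrays (5.30 to 5.74) lay above the PBS arrays (4.72 and 5.11), and within set 2 likewise (5.92 and 5.97 against 5.08 and 5.38). The change was 0.67 in set 1 and 0.72 in set 2. With the set as a block it was 0.69 (SE 0.14) and passed at adjusted p = 0.0257, in a fit that called 2.74% of all probe sets (1.32% higher and 1.43% lower in G-CSF). With the block and PBS replicate 3 left out it was 0.63, at adjusted p = 0.0529. The sets were found in the values of these arrays and are not a labelled batch. Without the block and with 1 array left out, the change was 0.54 (without PBS replicate 1) to 0.76 (without G-CSF replicate 1), at adjusted p of 0.0690 to 0.305, and it never passed.

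**Figure D3:**
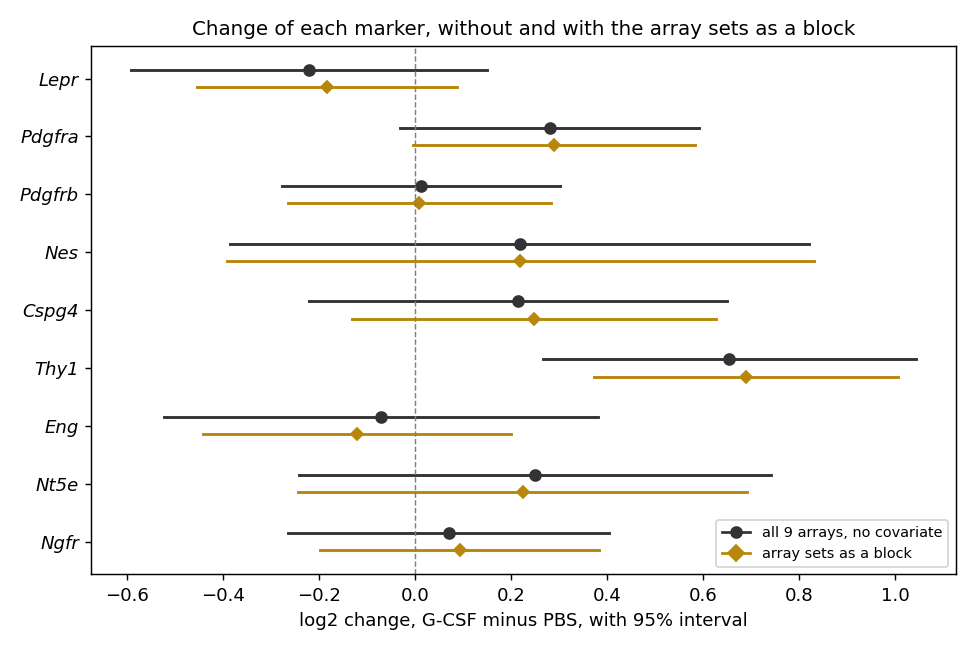
Change of each marker (log2 G-CSF minus PBS, horizontal axis) with its 95% interval, in the fit of all 9 arrays without covariate (black circles) and with the array sets as a block (yellow diamonds). The intervals for Thy1 lie to the right of 0 in both fits, and those of the other 8 markers include 0; the block narrows the intervals of all markers but Nes. The Thy1 estimate was 0.65 without the block and 0.69 with it.

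Thy1 is also a marker of T cells, neurons and fibroblasts. The 10 measured T cell genes had list means of 4.19 to 4.52 in G-CSF and 4.06 to 4.50 in PBS, and 0 of them passed (0 at an unadjusted p under 0.05). All 10 lay below the median of the tested probe sets in PBS. Of 11 measured genes of Sca-1 positive fibroblasts, 2 rose and 0 fell, with list means of 5.89 to 6.20 in G-CSF and 5.58 to 5.93 in PBS. They were Dcn (decorin), a small matrix proteoglycan (0.98, adjusted p = 0.00923), and Col3a1, a fibrillar collagen (0.68, adjusted p = 0.0201; lost without any 1 of 5 arrays, G-CSF replicates 1 and 2 and PBS replicates 1, 2 and 4, highest adjusted p = 0.0670). In PBS, 7 of the 11 lay below the median of the tested probe sets and 3 above the upper quartile. The part of fibroblasts in the Thy1 values was not tested.

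Among 17 measured ligands and partners of Thy1 and NG2, 0 passed in limma (9 at an unadjusted p under 0.05), with a median change of 0.37 beside a median near 0 over all probe sets and list means of 7.25 to 7.46 in G-CSF and 6.80 to 7.06 in PBS. The smallest p was that of Col6a2, a chain of collagen VI, to which NG2 binds (8.75 ± 0.20 in G-CSF and 8.08 ± 0.23 in PBS; change 0.66, SE 0.16, adjusted p = 0.0670). With the array sets as a block, 3 of the 17 rose (Col6a1, Col6a2 and Adgre5). The list also holds Itgam and Itgb2, the chains of the leukocyte integrin Mac-1 that binds Thy1, with changes of 1.17 and 0.97; they passed without PBS replicate 2 (named after their values were seen). Neutrophils carry this integrin, and the list mean of 14 neutrophil genes was 8.90 to 9.65 in G-CSF and 7.84 to 9.29 in PBS, higher on average with overlapping ranges; its part in these values was not tested.

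Eng (endoglin, CD105), an accessory receptor for transforming growth factor beta and bone morphogenetic proteins, was 7.72, 8.10, 7.79, 7.57 and 7.61 in the 5 G-CSF arrays (replicates 1 to 5), against 8.06, 8.36, 7.49 and 7.41 in the 4 PBS arrays (replicates 1 to 4). PBS replicate 2 was the highest array and PBS replicates 3 and 4 the lowest, so the PBS arrays spanned the G-CSF arrays. The level followed the array sets, at 7.52 in set 2 and 8.01 in set 1. The change was -0.07 with means of 7.76 ± 0.21 in G-CSF (SD, n = 5) and 7.83 ± 0.45 in PBS (n = 4), and its SE was 0.21 (95% interval -0.52 to 0.38, adjusted p = 0.981). Its sign differed between the sets (-0.34 in set 1 and 0.14 in set 2), and it was 0.10 without PBS replicate 2. Endothelial cells also express endoglin; the 15 endothelial genes had list means of 4.63 to 4.91 in G-CSF and 4.62 to 4.94 in PBS, and 0 passed (3 at an unadjusted p under 0.05).

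Of 15 ligands and partners of endoglin, 0 rose and 1 fell, with a median of 0.03. Acvr2a, an activin type II receptor that also takes up bone morphogenetic proteins, fell 2.16-fold, with 7.41 ± 0.21 in G-CSF and 8.52 ± 0.21 in PBS (change -1.11, SE 0.16, adjusted p = 0.00315). The G-CSF arrays all lay below the PBS arrays, and the call held with any 1 array left out. Tgfbr3 (betaglycan), the relative of endoglin with the same kind of accessory role, had non-overlapping groups as well, but did not pass (-0.41, adjusted p = 0.183; a choice made after seeing its values).

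Nt5e (CD73), the ectoenzyme that makes adenosine from extracellular AMP, was 7.03, 7.76, 6.59, 6.74 and 6.66 in the 5 G-CSF arrays (replicates 1 to 5), against 6.90, 6.55, 6.56 and 6.81 in the 4 PBS arrays (replicates 1 to 4). G-CSF replicate 2 stood above all other arrays, and the groups otherwise overlapped. The change was 0.25 with means of 6.96 ± 0.48 in G-CSF (SD, n = 5) and 6.71 ± 0.18 in PBS (n = 4), and its SE was 0.23 (95% interval -0.24 to 0.74, adjusted p = 0.889). Without G-CSF replicate 2 the change was 0.05. Of 10 measured genes of nucleotide and adenosine handling, 0 passed (3 at an unadjusted p under 0.05), with a median of 0.09. The smallest p was that of Slc29a1, the main equilibrative nucleoside transporter, at 9.52 ± 0.13 in G-CSF and 8.93 ± 0.30 in PBS (change 0.59, SE 0.16, adjusted p = 0.127); it passed with the array sets as a block at adjusted p = 0.0275.

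Ngfr (CD271), the receptor shared by the neurotrophins, was 5.76, 5.92, 5.69, 6.25 and 5.82 in the 5 G-CSF arrays (replicates 1 to 5), against 5.81, 5.60, 5.86 and 5.997 in the 4 PBS arrays (replicates 1 to 4). The groups overlapped throughout, with G-CSF replicate 4 the highest array. The change was 0.07 with means of 5.89 ± 0.22 in G-CSF (SD, n = 5) and 5.82 ± 0.16 in PBS (n = 4), and its SE was 0.15 (95% interval -0.27 to 0.40, adjusted p = 0.979). The sign turned without G-CSF replicate 4 (-0.02). Of 11 measured neurotrophin and receptor genes, 0 passed (2 at an unadjusted p under 0.05), with a median of 0.05. Sort1 (sortilin), the co-receptor of Ngfr for proneurotrophins, had the smallest p, at 6.48 ± 0.19 in G-CSF and 6.98 ± 0.27 in PBS (change -0.51, SE 0.16, adjusted p = 0.226). It was called lower in G-CSF with the array sets as a block and PBS replicate 3 left out. Glia of nerve fibres carry Ngfr too; the 9 measured genes of Schwann cells and neural crest glia had list means of 5.29 to 5.56 in G-CSF and 5.45 to 5.53 in PBS, and 0 passed (0 at an unadjusted p under 0.05).

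For Sca-1 itself no value is given, since no probe set has Ly6a as its only symbol, and the rest of its family stood as follows. Of 23 measured genes of the Ly6 and uPAR family, 0 passed (0 at an unadjusted p under 0.05), with a median of -0.01, and 15 of them had PBS means below the median of the tested probe sets. The smallest p was that of Ly6i (-0.58, adjusted p = 0.671). In PBS, 2 of the 23 lay above the upper quartile. Ly6e, 1 of these and a membrane protein induced by interferon, was chosen after seeing its values. It was at 10.09 ± 0.33 in G-CSF and 10.09 ± 0.46 in PBS (change 0.00556). Sca-1 is known as an interferon-induced gene. The 23 measured interferon-stimulated genes had list means of 5.83 to 6.19 in G-CSF and 6.30 to 6.59 in PBS, with a median change of -0.41. In limma 13 of the 23 had an unadjusted p under 0.05, and at the adjusted threshold 0 rose and 1 fell. It was Ifit3, an antiviral effector (change -1.89, SE 0.37, adjusted p = 0.0227), whose call was lost without any 1 of 6 arrays (G-CSF replicates 1, 3 and 4 and PBS replicates 1, 3 and 4; highest adjusted p = 0.0725). Without PBS replicate 3, Ifit1 and Iigp1 fell instead.

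Of 34 other marker genes used to sort or describe mesenchymal stroma, most of them for surface proteins, 1 rose and 2 fell, with a median of 0.07. Vcam1, an adhesion molecule that holds blood cells to stroma and also a gene of the CAR list, fell 2.10-fold (change -1.07, SE 0.13, adjusted p = 0.00134). Fgfr2, a receptor for fibroblast growth factors, fell 1.82-fold, with 9.09 ± 0.11 in G-CSF and 9.95 ± 0.12 in PBS (change -0.86, SE 0.13, adjusted p = 0.00511). Cd200, a membrane protein that restrains myeloid cells, rose 1.65-fold, with 9.16 ± 0.21 in G-CSF and 8.44 ± 0.22 in PBS (change 0.72, SE 0.16, adjusted p = 0.0453). The calls of Vcam1 and Fgfr2 held with any 1 array left out. That of Cd200 held only when G-CSF replicate 2 or PBS replicate 2 was the array left out, and did not hold in the other 7 fits (highest adjusted p = 0.138). With the array sets as a block, Cd82 and Fgfr1 also rose and Cdh11 also fell. With that block and without PBS replicate 3, 0 rose and Cdh11, Fgfr2 and Vcam1 fell.

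**Figure D4:**
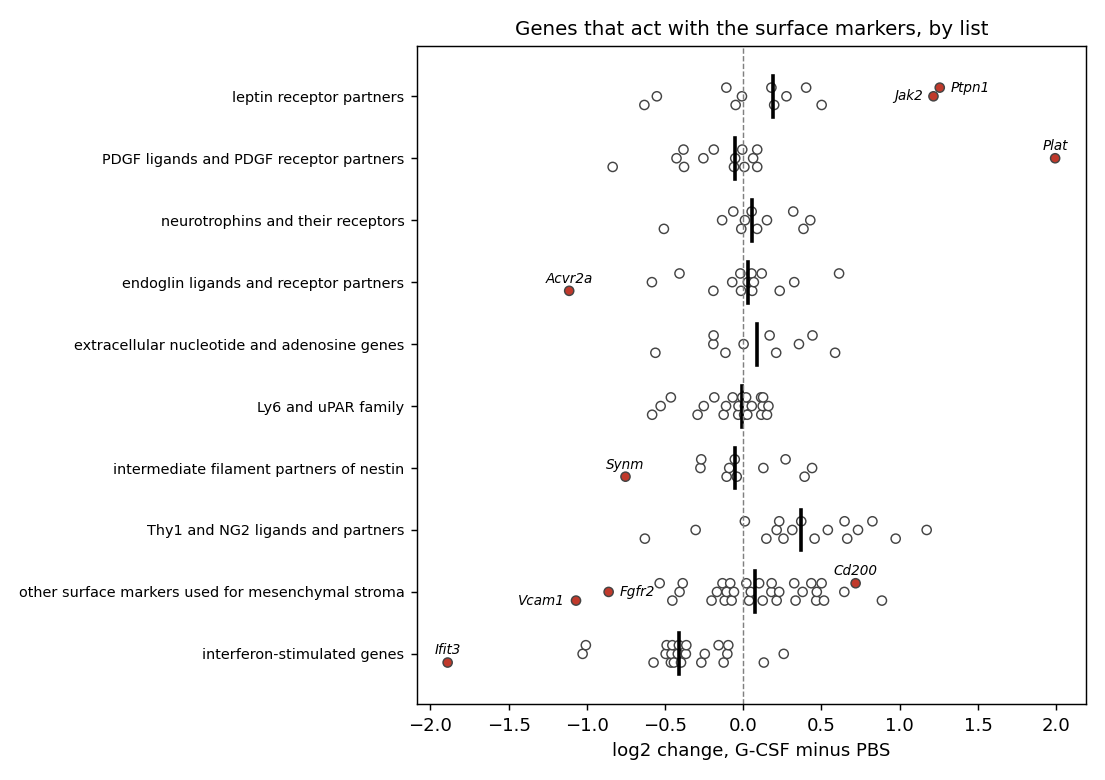
Change (log2 G-CSF minus PBS, horizontal axis) of each measured gene in 10 lists of genes that act with the markers or resemble them; red points passed the adjusted p threshold of 0.05 and are named, and vertical bars give list medians. Ptpn1 and Jak2 lie beyond 1 in the leptin receptor list and Plat at 1.99 in the PDGF list, while the medians lie between -0.41 and 0.37.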

How the data were processed

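RNA of sorted cells was measured on 9 Affymetrix Mouse Gene 1.0 ST arrays, 5 of G-CSF and 4 of PBS mice. Per the submitters' processing notes, Expression Console of Affymetrix and RMA produced the deposited intensity values (versions not given in the sources used here). They were on a linear scale, so log2 was taken here, with no pseudocount and no filter on low values. RMA normalises the arrays against each other, so a change in total RNA per cell cannot be seen, and it carries no detection call. The deposited values still differed in spread between arrays. Their interquartile range over all probe sets, in log2, was 2.45 in PBS replicate 3 and 2.99 in PBS replicate 1, the lowest and highest. The number of arrays limits the precision.

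The platform table paired 21789 of 35553 probe sets with 1 symbol, 1621 with several and listed none for 12143. Its gene identifiers matched 21698 of the 21789 in the GRCm38.p6 gene table, consulted only to name genes. G-CSF was compared with PBS in limma 3.58.1 (R 4.3.3; lmFit and eBayes, two-sided, Benjamini-Hochberg over 21789 probe sets, called at adjusted p under 0.05). A gene with several probe sets entered lists through its brightest one. Named were all members, up to 4 called genes of each related list or its smallest p, up to 3 called genes of each marker list, and the 3 genes most like Lepr. The members, 10 related and 12 marker lists were chosen with earlier results of these data known.

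Replicate numbers were not taken to pair arrays: deviations of same-numbered arrays correlated at -0.28 to 0.35. Alternatives were other probe set filters, variance models, normalisations and thresholds, array weights, blocks, and each array left out.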

Additional observations from a re-analysis of the deposited data

How the results depend on the processing

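The count of called markers was 0 of 9 in the main comparison and under every alternative run except the array sets as a block, where it was 1 (Thy1). With each array left out it was 0 throughout. All probe sets called numbered 353 in the main comparison, 181 with every probe set tested, 180 with the replicate block, 598 with the array sets as a block (622 without PBS replicate 3, an alternative chosen after seeing the data), 202 and 59 in array sets 1 and 2 alone, 149 at adjusted p under 0.01, and 210 to 318 with 1 array left out (222 without G-CSF replicate 1, 224 without G-CSF replicate 4 and the lowest without PBS replicate 1). The replicate block, which leaves out G-CSF replicate 5, changed no marker's call but lost those of Fgfr2, Cd200, Synm, Dcn, Col3a1, Csf3r and Rhag, and left 10 of the 21 CAR list genes called, against 16; 1 of 4 G-CSF arrays correlated best with the PBS array of its own number, and Thy1 was at 0.61 with the block (adjusted p = 0.156). G-CSF replicates 4 and 5 were closer to each other than any other pair within a group; averaging them as 1 replicate, chosen after seeing the data, left 241 calls.

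Lepr, Pdgfra, Nes, Cspg4, Thy1 and Nt5e kept their sign under every alternative. Pdgfrb turned negative at -0.10 with further quantile normalisation, -0.015 with array weights, -0.013 with the replicate block, -0.17 in array set 1, -0.011 with G-CSF replicates 4 and 5 averaged, and -0.044 with the set block without PBS replicate 3. With 1 array left out it ran between -0.042 and 0.056, negative without any 1 of G-CSF replicates 4 and 5 and PBS replicates 3 and 4. Eng turned positive at 0.14 in array set 2, and with 1 array left out ran between -0.21 and 0.10, positive without PBS replicate 1 or 2. Ngfr with 1 array left out ran between -0.020 and 0.13, negative without G-CSF replicate 4 or PBS replicate 2. The causes were not tested. RMA values carry no detection call, so whether the dimmer markers (Nes, Cspg4, and Thy1 in PBS) exceed background cannot be read from them.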

Other observations

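Fgfr1 and Fgfr2, 2 receptors for fibroblast growth factors, differed in the direction of their mean change, a pair chosen after the values were seen. Fgfr2 was 8.91 to 9.18 in the G-CSF arrays and 9.85 to 10.07 in the PBS arrays. Fgfr1 was 8.37 to 8.81 in the G-CSF arrays and 7.95 to 8.31 in the PBS arrays, a change of 0.50 that did not pass in limma (adjusted p = 0.152). The per-array difference of Fgfr1 minus Fgfr2 was -0.75 to -0.10 in G-CSF and -2.11 to -1.54 in PBS, without overlap; since the pair was picked for this, it was not tested. In the same list, Fap, a membrane protease of activated fibroblasts, was 9.92 to 10.21 in G-CSF and 9.47 to 9.71 in PBS (change 0.47, adjusted p = 0.126). Cdh11, the cadherin of mesenchymal cells, was 10.49 to 10.92 in G-CSF and 10.99 to 11.39 in PBS (change -0.53, adjusted p = 0.125).

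Among the remaining marker lists, 1 of 7 osteoblast genes rose (Col1a1, 1.36, adjusted p = 0.00157) and 1 fell (Phex, -2.07, adjusted p = 1.22e-04). Of 10 B lineage genes 1 fell (Cd79a, -1.08, adjusted p = 0.0227, lost in 7 of 9 fits with 1 array fewer). Of 14 neutrophil genes 2 rose (Mmp9, 1.64, adjusted p = 0.0257, and Csf3r, the G-CSF receptor, 0.94, adjusted p = 0.0262), each lost in 6 of those fits; without PBS replicate 2, 7 of the 14 rose. Of 8 erythroid genes 2 fell (Car1, -3.57, adjusted p = 0.0176, lost in 3 of those fits, and Rhag, -1.25, adjusted p = 0.0312, lost in 8). Of 12 macrophage genes and 11 genes of blood stem and progenitor cells, 0 passed in limma (3 and 0 at an unadjusted p under 0.05); without PBS replicate 3, 2 macrophage genes fell.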
